A study of Mus musculus with 17 samples.

Results

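The genes described are 10 members of the BCL-2 family, chosen by name with earlier results of these data known. They are Bcl2, Bcl2l1, Mcl1, Bcl2l11, Pmaip1, Bbc3, Bax, Bak1, Bid and Bad. Of these 10, 9 were measured, among 22180 genes in all, by 11 probe sets that carry a single member symbol. Bax was not analysed here, because the platform annotation used gave no probe set that name. The cells were eosinophils from CC10-IL13 transgenic mice, either Pirb-/- or Pirb+/+ littermates, of both sexes and 6 to 8 weeks old. The product of Pirb, PIR-B, is an inhibitory receptor of myeloid cells. Doxycycline (Dox) in the food for 2 weeks turned on the interleukin-13 transgene. All 6 groups, controls included, carry that transgene, and CC10 is a promoter of airway club cells rather than of the esophagus or marrow. The groups are wildtype marrow without Dox (2 arrays), knockout marrow without Dox (3 arrays), wildtype and knockout marrow with Dox (3 arrays each), and wildtype and knockout esophagus with Dox (3 arrays each). Esophagus without Dox was not analysed here. Eosinophils were sorted as CD45+/SiglecF+/CCR3+ cells after collagenase digestion of the esophagus or after marrow had been passed through a needle, so tissue and preparation cannot be told apart. The labels do not say whether a replicate is 1 animal or a pool, so the p-values reflect the spread among arrays, which may be technical.

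The BCL-2 family sets whether the outer mitochondrial membrane stays intact during stress. Survival proteins such as BCL-2, BCL-XL and MCL-1 hold back the pore formers BAX and BAK, and the BH3-only proteins BIM, NOXA, PUMA, BID and BAD oppose the survival proteins or activate the pore formers. Eosinophils are short-lived granulocytes whose survival in tissue is prolonged by interleukin-5, interleukin-3 and GM-CSF. Much control of this family lies in protein phosphorylation, cleavage and degradation, which RNA levels do not show.

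Each value is a log2 distance from the median array of its probe set. A value near 0 therefore means the level of the middle array, not a low level, and values of different genes cannot be ranked by abundance. The 10 marrow arrays other than knockout without Dox replicate 3 had SDs across genes of 0.25 to 0.30, and the 6 esophageal arrays of 0.50 to 0.59. Knockout without Dox replicate 3 stood apart, with an SD of 0.81, and it enters every fit through the shared estimate of spread. The Pirb probe set was not lower in knockout than in wildtype esophageal arrays at the adjusted threshold (log2 difference -0.28 ± 0.39 SE, limma adjusted p = 0.707). Where the deletion lies against that probe set, and how far its signal is shared with the closely related Pira genes, is not stated, so it checks no label and the genotypes are those of the labels.

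Since values are centred, the absence of a defining marker of eosinophils cannot be judged, but shifts between groups can. The mean of 10 measured eosinophil markers of 12 listed ranged from 0.14 to 0.36 on the wildtype and 0.12 to 0.40 on the knockout marrow arrays with Dox. It ranged from -0.82 to -0.34 on the wildtype and -0.30 to 0.10 on the knockout esophageal arrays. These markers did not move together: the granule protein genes Prg3 (-5.22 and -4.91 log2 units in wildtype and knockout), Prg2 (-3.53 and -2.20) and Epx (-3.50 and -3.50) were lower in the esophagus, while the lipoxygenase gene Alox15 was higher (2.95 and 3.36), all called. The mean of all 14 neutrophil markers ranged from 0.08 to 0.35 and -0.07 to 0.30 on the same marrow arrays, and from -3.03 to -2.22 and -2.23 to -2.08 on the esophageal arrays. The esophageal arrays were thus far lower for the mean of the neutrophil list in both genotypes, with 10 of 14 markers called lower and 1 higher in each. The mean of 7 dendritic cell markers ranged from -0.25 to -0.02 in marrow with Dox and from 0.36 to 0.78 in esophagus, and that of 6 fibroblast markers from -0.14 to -0.09 and from 0.16 to 0.62. The 9 mast cell and basophil markers had group means of 0.26 and 0.13 in wildtype and knockout marrow with Dox and -1.01 and -1.16 in esophagus. In each genotype 4 of them were called lower in esophagus and 0 higher. The 12 macrophage and monocyte markers had means of 0.45 and 0.47 in marrow and -0.33 and -0.40 in esophagus. They went both ways, with 2 called higher and 3 lower in wildtype esophagus, and 2 higher and 6 lower in knockout. In bulk samples, fewer cells of a type and less RNA per cell cannot be told apart, and the part of these marker shifts in the tissue differences was not tested.

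Among the 9 measured members, Bcl2l11 had the widest range over the 17 arrays, 3.53 log2 units, followed by Pmaip1 with 3.23 and Mcl1 with 1.94. In these 3 genes all 6 esophageal arrays lay above all 11 marrow arrays, for Pmaip1 only narrowly (0.50 against 0.49). The share of all genes with such a separation was not counted. Bid and Bcl2l1 had the narrowest ranges, 0.66 and 0.67 log2 units.

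**Figure D1:**
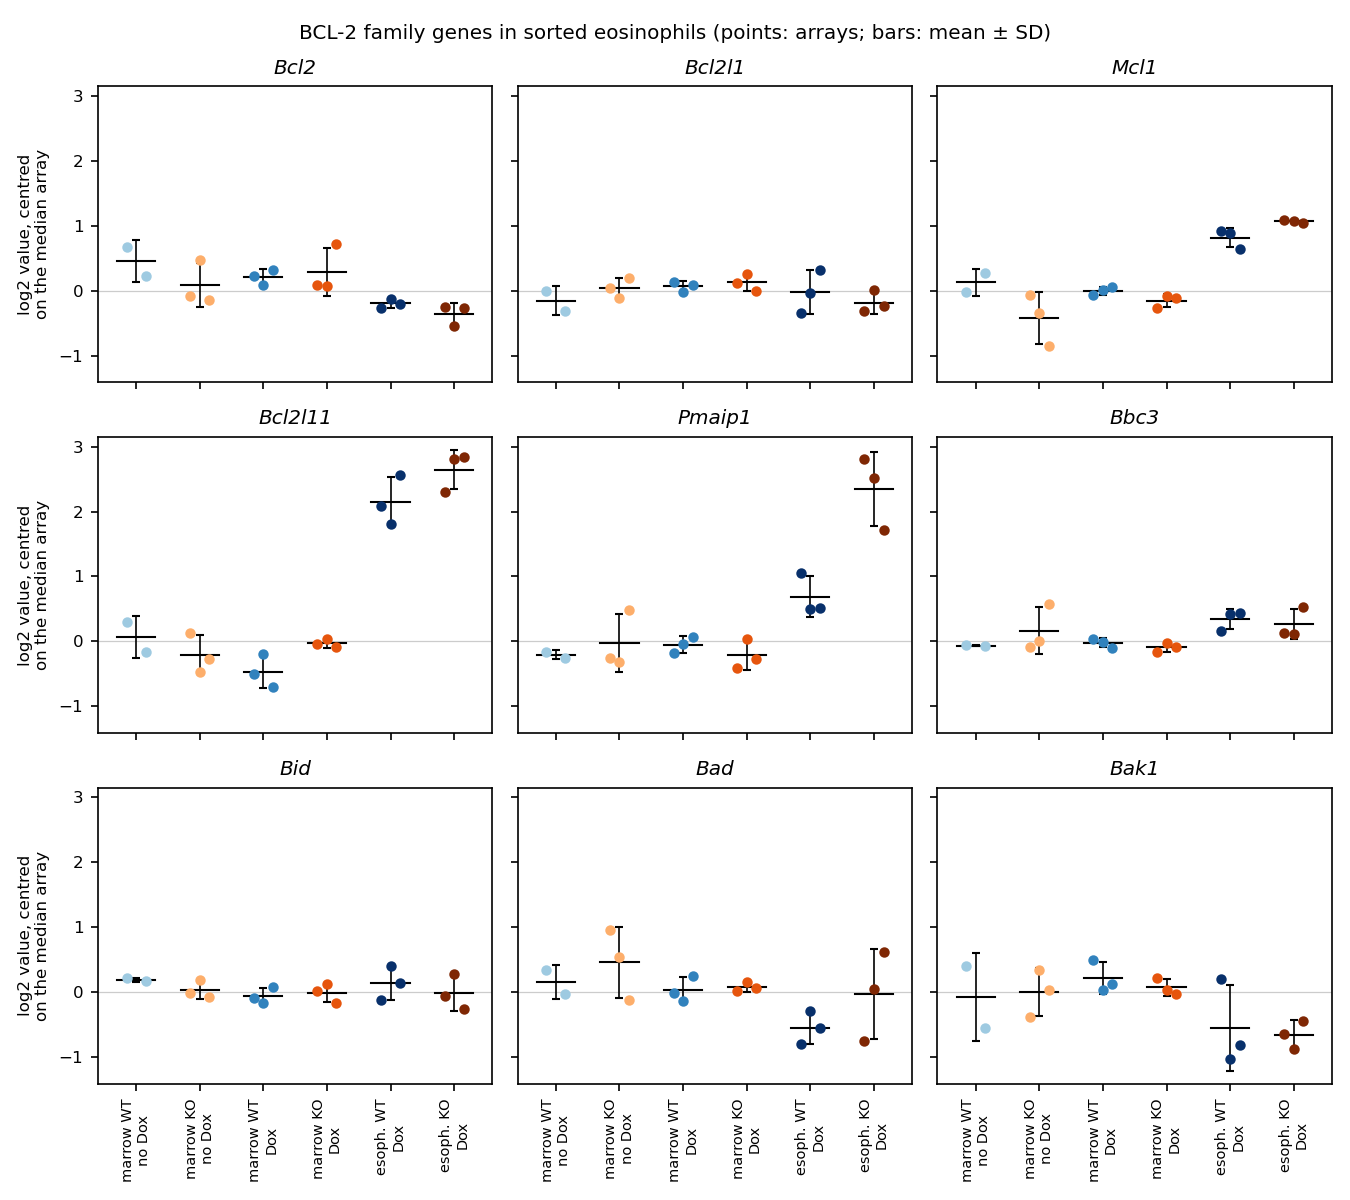
Log2 value of each member, centred on the median array, on the y axis, with the 6 groups on the x axis; points are arrays, the long bar is the group mean and the error bar 1 SD. Bcl2l11, Pmaip1 and Mcl1 are higher on the 6 esophageal arrays than on the 11 marrow arrays, and Pmaip1 is higher on the 3 knockout than on the 3 wildtype esophageal arrays.

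The promoter windows of Bcl2l11 and Mcl1 are shown because both genes were called higher in the esophagus of both genotypes. They are the 250 bases before the annotated start, from RefSeq on GRCm38.p6, at chr2:128125788-128126037 for Bcl2l11 and chr3:95658471-95658720 for Mcl1, both on the plus strand. Capitals mark matches on either strand to the NF-kB motif (GGG and CC with any 5 bases between them) or to TAAACA, the FOXO motif.
Bcl2l11: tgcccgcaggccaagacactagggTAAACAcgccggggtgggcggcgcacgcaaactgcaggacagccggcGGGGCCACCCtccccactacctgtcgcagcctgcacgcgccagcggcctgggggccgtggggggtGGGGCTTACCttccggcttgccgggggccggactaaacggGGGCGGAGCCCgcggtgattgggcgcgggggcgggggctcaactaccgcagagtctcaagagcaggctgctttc
Mcl1: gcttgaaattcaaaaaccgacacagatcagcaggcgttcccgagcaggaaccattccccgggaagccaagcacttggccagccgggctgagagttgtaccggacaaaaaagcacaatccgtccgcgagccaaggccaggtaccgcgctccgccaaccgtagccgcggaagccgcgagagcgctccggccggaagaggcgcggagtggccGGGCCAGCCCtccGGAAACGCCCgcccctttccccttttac
The Bcl2l11 window held 4 NF-kB matches, of which a pair overlap and print as 1 run of capitals, and 1 FOXO match. The Mcl1 window held 2 NF-kB matches and none to the FOXO motif. The loose NF-kB motif occurred in 45.8% of all 32851 promoter windows and the FOXO motif in 12%, so these matches are a description of the sequence and not sites. None of the motifs TTCNNNGAA for STAT (in 7.02% of windows), TGANTCA for AP-1 (6.75%) or TGACGTCA for CRE (1.55%) occurred in either window. RefSeq lists a second Bcl2l11 start with its own window, which is not printed.

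Esophageal and marrow eosinophils of Dox-fed mice were compared within each genotype, which asks how cells that have entered the inflamed tissue differ from those where they form. Called means a limma adjusted p under 0.05 over all genes. In wildtype mice, 2 of 9 members were called, both higher in the esophagus, against 15.2% of all genes called in either direction and 8.11% called higher. In knockout mice, 3 of 9 were called, all higher, against 10.5% of all genes in either direction and 4.5% higher. In each genotype the esophageal and marrow arrays did not overlap for 6 of 9 members (4 higher, 2 lower), against 46.1% of all genes in wildtype and 44.0% in knockout. The median member difference was 0.20 log2 units in wildtype, where that of all genes was 0.14, and -0.00 in knockout, where that of all genes was 0.06.

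Of the 5 measured BH3-only genes, Bcl2l11, which encodes the direct activator BIM, differed most between the tissues. On wildtype marrow arrays with Dox its values were -0.51, -0.20 and -0.70, and on wildtype esophageal arrays 2.09, 1.81 and 2.56. The knockout values were -0.04, 0.04 and -0.09 in marrow and 2.30, 2.80 and 2.83 in esophagus. All esophageal arrays were high and no array of one tissue reached the other. The difference was 2.62 ± 0.22 (SE) log2 units in wildtype, or 6.16-fold (95% interval 4.43 to 8.56, limma adjusted p = 1.17e-05). It was 2.68 ± 0.22 in knockout, or 6.39-fold (95% interval 4.60 to 8.87, limma adjusted p = 7.23e-06), and 1.64 log2 units after quantile normalization (limma adjusted p = 0.00427). Ordered by size among genes that were higher in the esophagus, Bcl2l11 was number 48 in wildtype and number 92 in knockout.

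Pmaip1 encodes NOXA, a BH3-only protein that binds MCL-1 and promotes its degradation. Its wildtype values with Dox were -0.18, -0.04 and 0.07 in marrow and 1.06, 0.50 and 0.51 in esophagus. Its knockout values were -0.41, 0.04 and -0.26 in marrow and 2.81, 2.52 and 1.71 in esophagus. The means of the 4 marrow groups lay close together, wildtype esophagus above them and knockout esophagus higher again, with no overlap at either step. The first step was narrow, since knockout marrow without Dox replicate 3 stood at 0.49 and the lowest wildtype esophageal array at 0.50. In knockout the tissue difference was 2.56 ± 0.27 log2 units, or 5.91-fold (limma adjusted p = 5.82e-05). In wildtype it was 0.74 ± 0.27 (95% interval 0.15 to 1.32) and was not called (limma adjusted p = 0.077), although the arrays did not overlap.

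Bbc3, which encodes PUMA, a p53-induced activator, stood at 0.04, -0.00 and -0.10 in wildtype marrow with Dox and 0.16, 0.42 and 0.45 in wildtype esophagus. In knockout it stood at -0.17, -0.03 and -0.08 in marrow and 0.14, 0.12 and 0.53 in esophagus. The esophageal arrays were the higher ones in each genotype, with no overlap. The differences of 0.36 ± 0.16 and 0.35 ± 0.16 log2 units were not called (limma adjusted p = 0.122 and 0.199). Knockout marrow without Dox replicate 3 had a Bbc3 value of 0.58, above every esophageal array.

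Bad, whose protein is held inactive by survival kinases, had values of -0.01, -0.13 and 0.25 in wildtype marrow with Dox and -0.80, -0.30 and -0.55 in wildtype esophagus. The wildtype esophageal arrays were all lower, by -0.58 ± 0.31 log2 units (limma adjusted p = 0.185). In knockout esophagus Bad scattered from -0.76 over 0.04 to 0.62 and overlapped the marrow values of 0.01, 0.15 and 0.06. A further probe set that the annotation gives to both Gpr137 and Bad was not used for Bad and went the other way. It was 0.33 ± 0.13 log2 units higher in wildtype esophagus than marrow, without overlap (limma adjusted p = 0.0981), and differed by -0.25 ± 0.13 between esophageal genotypes. Bid, which links death receptors to mitochondria after caspase cleavage, had intervals that covered 0 in both genotypes (log2 differences 0.20 ± 0.15 and -0.00 ± 0.15).

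Of the 3 survival genes, only Mcl1 was called. MCL-1 is a rapidly turned over protein on which granulocytes depend. Its values in wildtype were -0.06, 0.01 and 0.05 in marrow with Dox and 0.91, 0.88 and 0.64 in esophagus. In knockout they were -0.27, -0.09 and -0.11 in marrow and 1.09, 1.07 and 1.04 in esophagus. Every esophageal array exceeded every marrow array. The 3 knockout esophageal values lay closest together, but only as averages of probe sets. By itself, probe set 17400418 ran from 1.24 to 1.46 on those arrays and probe set 17407826 from 0.62 to 0.91. The tissue difference was 0.81 ± 0.16 log2 units in wildtype, or 1.76-fold (95% interval 1.39 to 2.23, limma adjusted p = 0.00573). In knockout it was 1.22 ± 0.16, or 2.34-fold (95% interval 1.85 to 2.96, limma adjusted p = 0.00029).

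Bcl2, the founding survival gene, pointed the other way. Wildtype values were 0.22, 0.09 and 0.33 in marrow with Dox and -0.27, -0.12 and -0.20 in esophagus. Knockout values were 0.08, 0.07 and 0.72 in marrow and -0.25, -0.55 and -0.26 in esophagus. The esophageal arrays were low in each genotype, without overlap with marrow with Dox. Neither difference was called (-0.41 ± 0.20 log2 units, limma adjusted p = 0.15, in wildtype; -0.64 ± 0.20, limma adjusted p = 0.0554, in knockout). Bcl2l1, which encodes BCL-XL, differed by -0.09 ± 0.16 in wildtype and -0.31 ± 0.16 log2 units in knockout, neither called (limma adjusted p = 0.685 and 0.253).

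Bcl2 and Mcl1 each had 2 probe sets, which were averaged. Those of Bcl2 disagreed in direction in wildtype, and those of Mcl1 in size. For Bcl2, probe set 17216395 differed between tissues by 0.15 ± 0.12 and -0.05 ± 0.12 log2 units in wildtype and knockout, while probe set 17226043 differed by -0.97 ± 0.34 and -1.23 ± 0.34. In a limma fit over all probe sets the latter was called in knockout (adjusted p = 0.0414) and not in wildtype (adjusted p = 0.0738). For Mcl1, probe set 17400418 was called in both genotypes (0.97 ± 0.13 and 1.56 ± 0.13 log2 units). Probe set 17407826 had the same direction in both (0.66 ± 0.28 and 0.89 ± 0.28) but was not called by limma (adjusted p = 0.122 and 0.0748). On both Mcl1 probe sets all 6 esophageal arrays lay above all 11 marrow arrays. The level of Bcl2 in the esophagus thus rests on 1 of its 2 probe sets, and that of Mcl1 has the same direction on both.

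**Figure D2:**
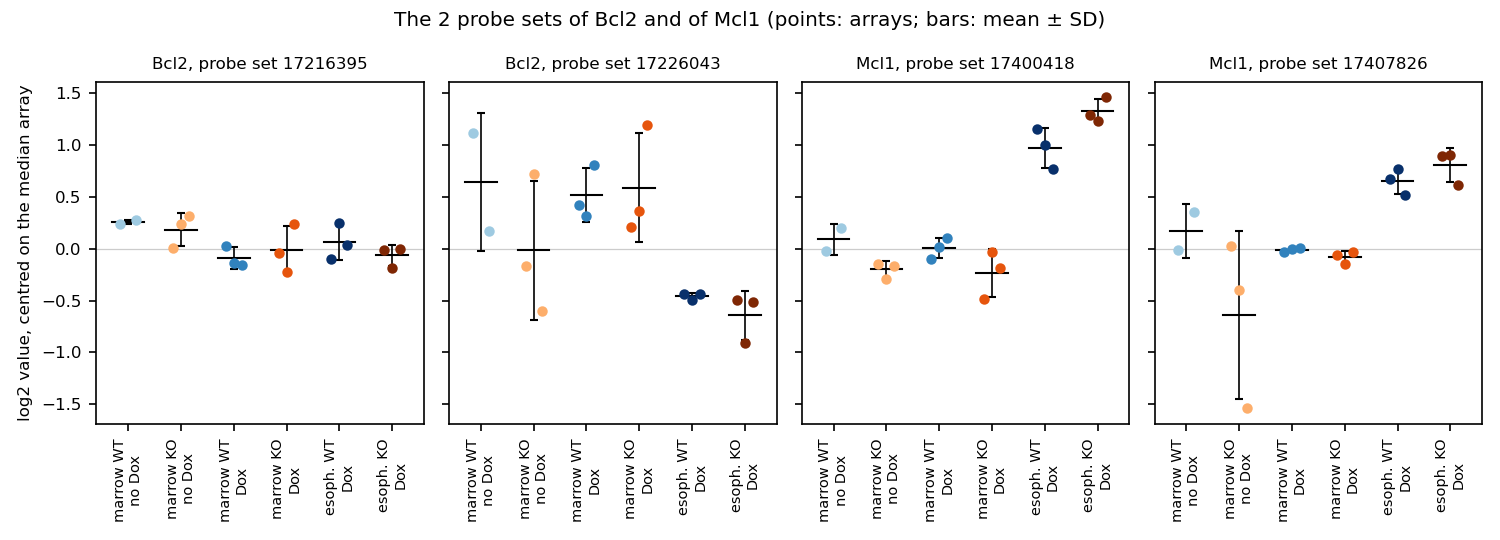
Log2 value of each of the 2 probe sets of Bcl2 and of Mcl1, centred on the median array, on the y axis, with the 6 groups on the x axis; points are arrays, the long bar is the group mean and the error bar 1 SD. The Bcl2 probe sets differ in whether esophageal arrays are low, and on Mcl1 probe set 17407826 knockout marrow without Dox replicate 3 lies at -1.54, far below the other arrays.

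Bak1 was the measured pore former. It stood at 0.50, 0.03 and 0.13 in wildtype marrow with Dox and at 0.20, -1.03 and -0.82 in wildtype esophagus. In knockout it stood at 0.22, 0.03 and -0.03 in marrow and -0.65, -0.88 and -0.44 in esophagus. Of the 6 esophageal arrays, 4 lay below all marrow arrays, and wildtype esophagus replicate 1 lay among the marrow arrays. The differences of -0.77 ± 0.31 and -0.73 ± 0.31 log2 units were not called (limma adjusted p = 0.101 and 0.18).

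Without knockout marrow without Dox replicate 3, which enters these tissue differences only through the shared estimate of spread, 4 members were called in wildtype and 5 in knockout. Pmaip1 (limma adjusted p = 0.031) and Bbc3 (0.0236) joined in wildtype. Bcl2 (limma adjusted p = 0.0352) and Bbc3 (0.0405) joined in knockout. Bcl2l11 and Mcl1 were called in both genotypes with or without that array. Leaving out an array also moved the number of all genes called in these tissue comparisons. Whether the members that joined exceed such a general change in calls was not tested.

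**Figure D3:**
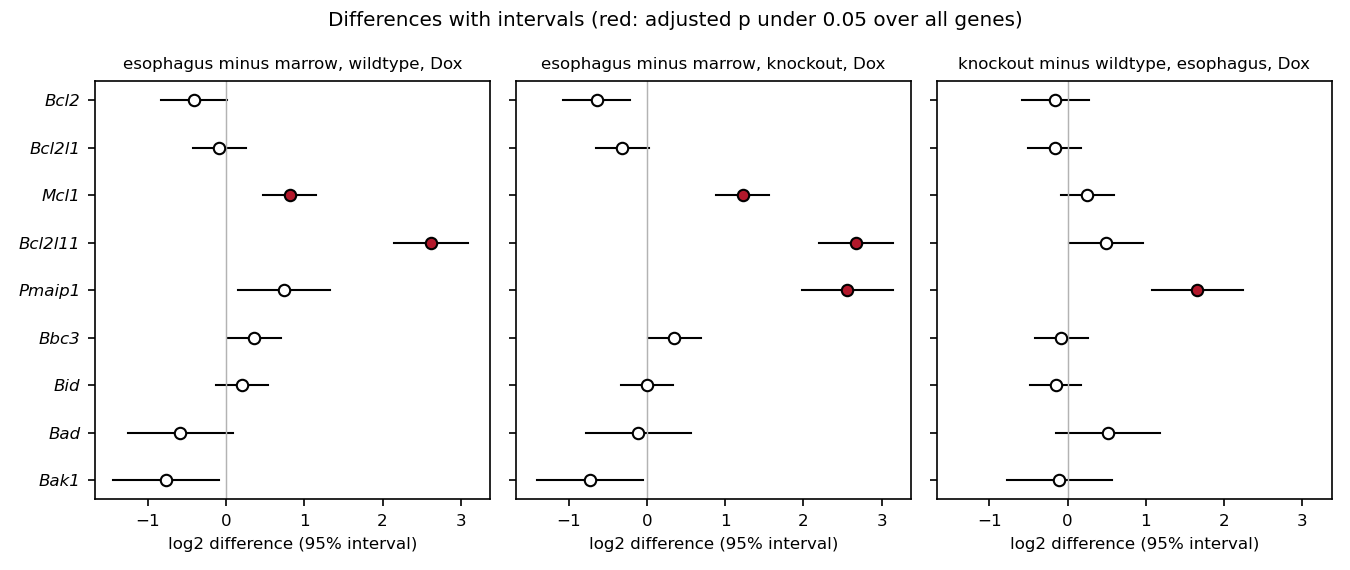
Log2 difference of each member with its 95% interval on the x axis, members on the y axis, for the tissue difference in wildtype, the tissue difference in knockout and the genotype difference in esophagus, all with Dox; red points have a limma adjusted p under 0.05. Bcl2l11 and Mcl1 are red in both tissue panels, and Pmaip1 in the knockout tissue panel and the genotype panel.

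Knockout and wildtype esophageal eosinophils were compared to ask what the loss of the receptor changes at the inflamed site. Pmaip1 was the 1 member called of 9, against 0.347% of all genes (77 genes), or 0.311% called higher. This comparison and the knockout tissue comparison share the 3 knockout esophageal arrays. It was 1.66 ± 0.27 log2 units higher in knockout, or 3.16-fold (95% interval 2.11 to 4.74, limma adjusted p = 0.0239), and number 65 by size among genes higher in knockout. Without knockout marrow without Dox replicate 3 the limma adjusted p was 0.00666. The group means ± SD were 0.69 ± 0.32 for wildtype esophagus and 2.35 ± 0.57 for knockout esophagus (n = 3 each), and the lowest knockout array lay above the highest wildtype array. The call was lost in 4 of the 6 fits that left out 1 esophageal array. The limma adjusted p was then 0.0804 without wildtype replicate 2, 0.0741 without wildtype replicate 3, 0.0889 without knockout replicate 1 and 0.0882 without knockout replicate 2. The difference itself stayed between 1.43 and 1.57 log2 units in those fits. It fell to 0.97 log2 units after quantile normalization (limma adjusted p = 0.597).

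The labels give no sex per array, and the average of 3 Y-linked genes, Kdm5d, Uty and Eif2s3y, differed among the esophageal arrays. This average was 0.14, -0.66 and -0.58 on the wildtype esophageal arrays and 0.83, 0.49 and -0.16 on the knockout ones. Within each genotype the esophageal array with the highest Y-linked mean had the highest Pmaip1. The order was the reverse in wildtype marrow with Dox, with Y-linked means of 0.37, 0.17 and -0.23 beside Pmaip1 values of -0.18, -0.04 and 0.07. With the Y-linked mean as a covariate, the Pmaip1 difference between esophageal genotypes was 1.44 log2 units and was not called (limma adjusted p = 0.269). The eosinophil markers also moved with genotype, with group means of -0.65 in wildtype and -0.13 in knockout esophagus. Of the 10 measured, 8 were higher in knockout and 1 was called. That marker was Siglecf, whose product the cells were sorted on, higher by 0.95 ± 0.16 log2 units (limma adjusted p = 0.0259). The 9 measured epithelial markers had means of 0.07 and 0.13 in wildtype and knockout esophagus. Of these 9, 6 were higher in knockout, with 0 called between these groups. The epithelial markers called in a tissue comparison were Krt13, with means of 0.15 and 0.72 in wildtype and knockout esophagus, and Cdh1, with -0.22 and -0.14. The part of these marker shifts in the Pmaip1 difference was not tested.

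**Figure D4:**
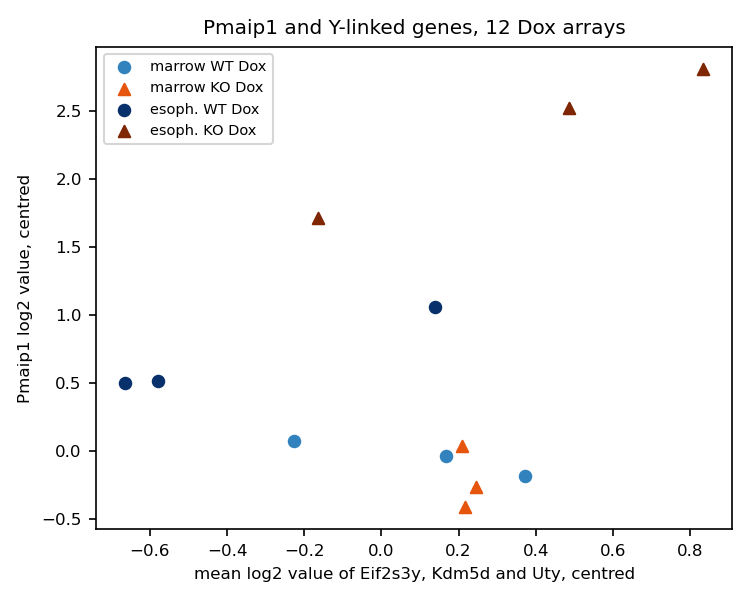
Pmaip1 log2 value on the y axis against the mean log2 value of Kdm5d, Uty and Eif2s3y on the x axis, both centred on the median array, for the 12 arrays with Dox; colours and shapes give tissue and genotype. The knockout esophageal array with the lowest Y-linked mean, -0.16, has a Pmaip1 value of 1.71, above the wildtype esophageal array at 1.06 whose Y-linked mean is 0.14.

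The other BH3-only genes were not called between esophageal genotypes. Bcl2l11 was 0.49 ± 0.22 log2 units higher in knockout (95% interval 0.02 to 0.97, limma adjusted p = 0.329), and the arrays overlapped. Bad differed by 0.52 ± 0.31 (95% interval -0.15 to 1.18), Bbc3 by -0.08 ± 0.16 (-0.42 to 0.26) and Bid by -0.15 ± 0.15 (-0.48 to 0.18). The Bad interval reached up to 2.27-fold in knockout, and those of Bbc3 and Bid reached down to 0.75-fold and 0.72-fold.

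Among the survival genes, Mcl1 was 0.25 ± 0.16 log2 units higher in knockout esophagus (95% interval -0.09 to 0.59, limma adjusted p = 0.438). Its 3 knockout arrays lay above its 3 wildtype arrays. Pmaip1 and Mcl1 were the 2 members of 9 whose knockout and wildtype esophageal arrays did not overlap, against 23.3% of all genes. Bcl2 differed by -0.16 ± 0.20 (-0.58 to 0.27) and Bcl2l1 by -0.16 ± 0.16 (-0.50 to 0.17), and the pore former Bak1 by -0.11 ± 0.31 (-0.78 to 0.57). The median member difference was -0.08 log2 units, and that of all genes was -0.10.

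Whether the genotype difference was larger in esophagus than in marrow was tested as an interaction, in which 0 of 9 members were called by limma against 0.00451% of all genes. For Pmaip1 the interaction was 1.82 ± 0.38 log2 units (95% interval 1.00 to 2.65, limma unadjusted p = 0.000368, adjusted p = 0.371, or 0.103 without knockout marrow without Dox replicate 3). For Mcl1 it was 0.41 ± 0.22 (adjusted p = 0.962) and for Bcl2l11 0.05 ± 0.31 (adjusted p = 0.993). Over 26 alternative fits the Bcl2l11 interaction ran from -1.04 to 0.26 log2 units and was never called, so its size depends on the processing. In the main fit, Pmaip1 was the only member with an unadjusted limma p under 0.05, against 1099 of all 22180 genes. The Pmaip1 difference in marrow with Dox was -0.17 ± 0.27.

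In marrow, no member was called in any of the 4 comparisons by limma. For knockout against wildtype with Dox, 0 of 9 were called, against 0.0% of all genes. An unadjusted p under 0.05 was found for 0 of 9, against 407 of all 22180 genes. Bcl2l11 was 0.44 ± 0.22 log2 units higher in knockout (95% interval -0.04 to 0.91) and its arrays did not overlap. Mcl1 was -0.16 ± 0.16 and also without overlap, so that these 2 of 9 members stood apart, against 11.7% of all genes.

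For knockout against wildtype without Dox, 0 of 9 were called by limma, against 0.0% of all genes. An unadjusted p under 0.05 was found for 1 member, against 1809 of all 22180 genes. That member was Mcl1, with values of -0.06, -0.35 and -0.85 on the knockout arrays and -0.01 and 0.28 on the wildtype arrays. The knockout arrays were all lower, by -0.55 ± 0.18 log2 units (limma unadjusted p = 0.00796, adjusted p = 0.546). Without knockout replicate 3, which had the lowest value, the difference was -0.34. Mcl1 was the 1 member of 9 whose arrays did not overlap here, against 23.3% of all genes. Without knockout replicate 3, Mcl1 and Bad did not overlap, against 33.9% of all genes, the Bad difference went from 0.31 to 0.60 log2 units, and again 0 of 9 were called by limma.

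The Dox effect in marrow was read in each genotype, and transgene and drug cannot be told apart in it. In wildtype, 0 of 9 members were called by limma, against 0.0225% of all genes. An unadjusted p under 0.05 was found for 1 member, against 957 of all 22180 genes. Bcl2l11 stood at 0.30 and -0.16 without Dox and was lower with Dox on all 3 arrays, by -0.54 ± 0.25 log2 units (limma adjusted p = 1.0). Bid was also without overlap, lower by -0.25 ± 0.17, and these 2 of 9 stood against 25.3% of all genes. In knockout, 0 of 9 were called by limma, against 0.0225% of all genes. An unadjusted p under 0.05 was found for 0 of 9, against 6053 of all 22180 genes. No member of 9 was without overlap there, against 36.5% of all genes. Without knockout marrow without Dox replicate 3, Bad did not overlap, against 41.3% of all genes, its difference went from -0.39 to -0.68 log2 units, and 0 of 9 were called by limma. The genotype by Dox interaction called 0 of 9 by limma, against 0.0% of all genes. Its largest member value was 0.71 ± 0.33 log2 units for Bcl2l11 (limma adjusted p = 0.663). None of the 9 was under 0.05 unadjusted, against 1391 of all 22180 genes.

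Ordered by group mean, Bcl2l11 was highest in knockout and then wildtype esophagus, which overlapped. Its 4 marrow groups followed, from 0.07 ± 0.32 in wildtype without Dox to -0.47 ± 0.25 in wildtype with Dox, and each overlapped its neighbour. Mcl1, averaged over its probe sets, had means of 1.07 ± 0.03 and 0.81 ± 0.15 in knockout and wildtype esophagus. Its marrow means ran from 0.13 ± 0.21 in wildtype without Dox to -0.42 ± 0.40 in knockout without Dox. Bcl2 ran in the opposite order of tissues, from 0.45 ± 0.32 in wildtype marrow without Dox to -0.35 ± 0.17 in knockout esophagus, and each group overlapped the next.

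Other genes of the death and survival pathways were read in 9 lists, with 125 genes measured in all. These lists were also chosen with earlier results of these data known. In the tissue comparison 27 of the 125 were called higher and 9 lower in wildtype esophagus, or 28.8%, and 26 higher and 9 lower in knockout, or 28.0%. The background shares are 15.2% and 10.5% of all genes. The medians of the 125 were 0.14 and 0.16 log2 units. Between esophageal genotypes 1 of the 125 was called.

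Of 12 measured further BCL-2 family genes, 3 were called higher in wildtype and 1 in knockout esophagus, and none lower. Bcl2a1a, a survival gene induced in activated granulocytes, was higher by 1.18 ± 0.29 and 1.11 ± 0.29 log2 units. Bcl2a1c was higher by 0.74 ± 0.12 in wildtype, but these near-identical copies can share probe signal and are uncertain one by one. Bok, a BAX-like gene, was higher by 0.53 ± 0.16 in wildtype.

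Of 22 apoptosome, caspase and inhibitor genes, 1 was called higher and 4 lower in wildtype, and 1 higher and 5 lower in knockout. Birc3, an inhibitor of apoptosis that restrains caspase signalling, was higher by 2.23 ± 0.23 and 3.05 ± 0.23 log2 units. The mitochondrial protease gene Htra2 was lower, at -2.06 ± 0.20 and -2.01 ± 0.20, as was Aifm1, which encodes apoptosis-inducing factor, at -1.47 ± 0.22 and -1.42 ± 0.22. Birc5, a survivin gene expressed in dividing cells, stood at -2.55 ± 0.68 and -2.87 ± 0.68, and Parp1, a DNA repair enzyme, at -1.34 ± 0.33 and -1.60 ± 0.33. The list median was -0.41 in wildtype and -0.35 in knockout.

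Of 13 death receptor genes, 3 were called higher and 1 lower in each genotype. The receptor gene Fas was higher by 2.50 ± 0.40 and 3.27 ± 0.40 log2 units, and Tnfrsf1b, a TNF receptor, by 0.98 ± 0.20 and 1.01 ± 0.20. The ligand gene Fasl was called in wildtype at 0.41 ± 0.09, and Tnf in knockout at 2.62 ± 0.40. Tnfrsf1a was called lower in wildtype (-0.52 ± 0.16) and the necroptosis kinase Ripk3 lower in knockout (-0.64 ± 0.12). The list medians were 0.10 and 0.08.

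The p53 and stress response pathways are known to induce BH3-only genes. Trp53 itself was not analysed here. Of 17 measured genes of the list of p53 and its targets, 5 were called higher in wildtype and 4 in knockout, and none lower. Cdkn1a, the p21 cell cycle inhibitor, was higher by 2.31 ± 0.17 and 2.66 ± 0.17 log2 units, Plk2 by 2.58 ± 0.64 and 2.50 ± 0.64, and Btg2, an antiproliferative gene, by 2.54 ± 0.45 and 4.39 ± 0.45. Smaller differences were called for Phlda3 in wildtype (0.53 ± 0.13) and for Sesn2 in both genotypes (0.46 ± 0.13 and 0.55 ± 0.13). Of 15 integrated stress response genes, which can raise Pmaip1 and Bcl2l11, 6 were called higher and 2 lower in wildtype and 5 higher and 3 lower in knockout. Ppp1r15a, a phosphatase subunit of that response, was higher by 2.69 ± 0.34 and 3.04 ± 0.34, and the transcription factor genes Atf3 by 1.59 ± 0.37 and 2.70 ± 0.37 and Ddit3 by 1.05 ± 0.30 and 1.20 ± 0.30. The kinase gene Eif2ak2 was lower, at -1.77 ± 0.43 and -1.97 ± 0.43. The medians were 0.24 and 0.28 for the p53 list and 0.25 and 0.25 for the stress list.

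Of 10 genes of FOXO factors and targets, which include known inducers of Bcl2l11, 3 were called higher in wildtype and 5 in knockout, and none lower. Trib1 was higher by 2.56 ± 0.28 and 3.11 ± 0.28 log2 units, Ccng2 by 2.18 ± 0.30 and 1.81 ± 0.30, and Klf2 by 1.09 ± 0.16 and 0.92 ± 0.16. Txnip was called in knockout at 1.24 ± 0.33, as was Foxo3, a FOXO factor itself, at 0.75 ± 0.18. The list medians were 0.66 and 0.80.

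Of 11 survival cytokine receptor and STAT5 genes, 4 were called higher in wildtype and 5 in knockout, and none lower, with medians of 0.72 and 0.89 log2 units. Cish, a STAT5 feedback gene, was higher by 1.81 ± 0.26 and 2.37 ± 0.26, Csf2rb2, an interleukin-3 receptor beta chain, by 1.45 ± 0.30 and 2.28 ± 0.30, and the feedback genes Socs3 by 1.59 ± 0.13 and 1.05 ± 0.13 and Socs2 by 0.39 ± 0.11 and 0.37 ± 0.11. Il5ra, the interleukin-5 receptor alpha chain, was called in knockout at 2.44 ± 0.50.

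Of 12 kinases and partners of BAD, 3 were called higher and 1 lower in wildtype and 3 higher in knockout, with medians of -0.09 and 0.08 log2 units. The kinase gene Pim1 was higher by 1.26 ± 0.23 and 1.68 ± 0.23 and Pim3 by 0.43 ± 0.12 and 0.57 ± 0.12, and Pim2 was called in wildtype at 0.67 ± 0.17. Ywhae, a 14-3-3 protein gene, was lower in wildtype at -0.74 ± 0.14. Ppp3ca, a catalytic subunit of calcineurin, was the gene of these lists called between esophageal genotypes, higher in knockout by 0.51 ± 0.10 (limma adjusted p = 0.0457), and it was called in the knockout tissue comparison at 0.69 ± 0.10. Of 14 genes that turn over MCL-1, BIM or NOXA protein, 1 was called, the ubiquitin ligase scaffold gene Cul5, lower in wildtype esophagus at -0.78 ± 0.20. The list medians there were -0.07 and 0.23.

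**Figure D5:**
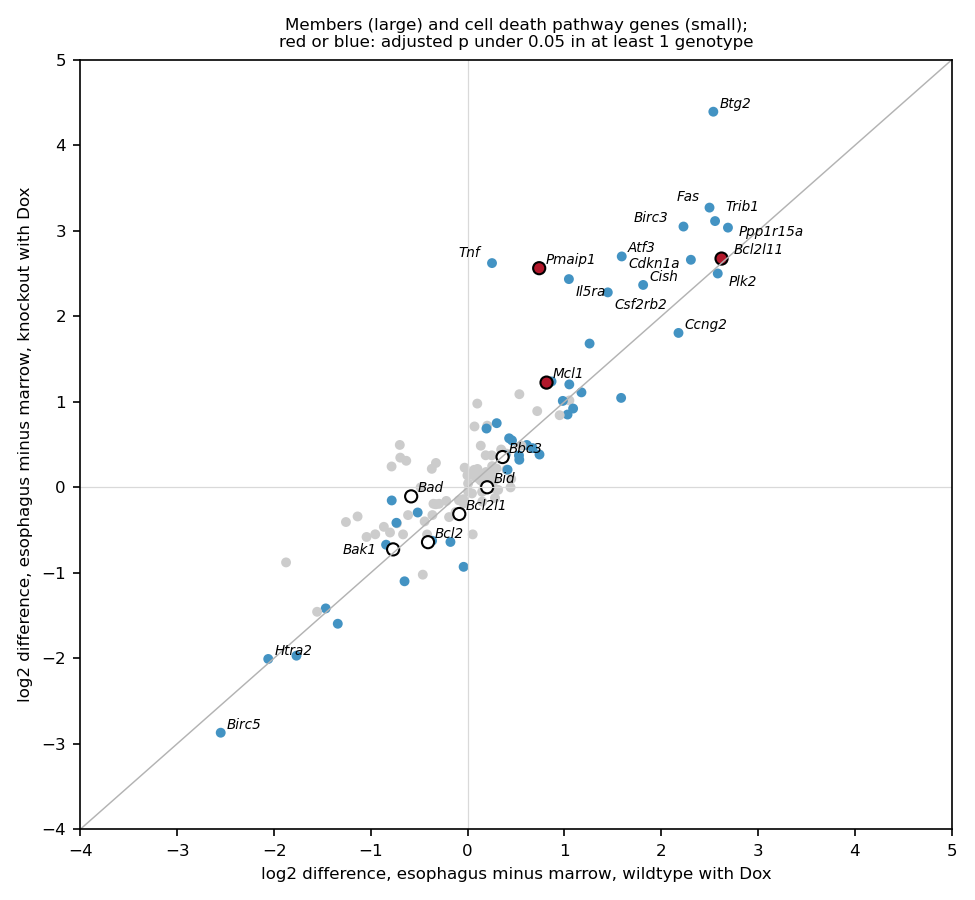
Log2 difference between esophagus and marrow with Dox in knockout (y axis) against wildtype (x axis); large points are members, small points genes of the 9 pathway lists, colour marks a limma adjusted p under 0.05 in at least 1 genotype, and the line marks equal differences. Bcl2l11 lies on the line at 2.62 and 2.68, and Pmaip1 lies far above it at 0.74 and 2.56.

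The genes whose pattern over the 12 arrays with Dox was most like that of a member were listed by Pearson r for the 3 members with the smallest adjusted p. These arrays form a marrow and an esophageal cluster, so r mostly follows the step between tissues and is a description. For Bcl2l11 they were Samhd1 (r = 0.986), Neurl3 (0.984) and Tnfaip3 (0.982), and for Mcl1 they were Ccl3 (0.988), Samsn1 (0.987) and Ptafr (0.985). For Pmaip1, which also stepped with genotype in the esophagus, they were Sprr2f (0.973), a small proline-rich protein gene of epithelium, Capns2 (0.967) and E030024N20Rik (0.962).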

How the data were processed

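Eosinophil RNA from 17 mouse samples in 6 groups was measured on 1-colour Affymetrix arrays. The values that the authors deposited are log values, taken here as log2; the log base, the scaling between arrays and the genome build are not given in the sources used here. Affymetrix Expression Console was used, per the submitters' processing notes. Probe sets had been median-centred by the time of deposit: in 97.08% of the 33793 probe sets a middle pair of values was equal and opposite within 2e-05. Brightness, and so a filter on dim probes, cannot be had. One wildtype marrow replicate without Dox had been dropped for weak signal, per the labels' design text.

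Of the probe sets, 23521 had 1 gene symbol, 1814 several and 8458 none; names were updated through Entrez identifiers, of which 23328 matched. Values of several probe sets of a gene (1082 genes) were averaged. All 22180 genes entered 1 limma 3.58.1 fit (R 4.3.3) of 6 group means with eBayes, two-sided, with Benjamini-Hochberg adjustment over all genes and a threshold of 0.05. The fit was tested on simulated data. Errors of differences are standard errors and those of group means are SDs. The number of arrays limits the precision.

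Members and lists were chosen with earlier results of these data known. All members are named. Genes of the pathway lists are named where called, up to the 4 largest per list and comparison and also Foxo3. Values of the other genotype stand beside them where also called. Marker lists are given by their means, some with counts of genes called. The 4 largest wildtype tissue differences are also given for eosinophil markers, as is Siglecf, called between esophageal genotypes. Epithelial markers are named where called between tissues. Alternatives tried were each array centred on its median, quantile normalization, a fit of only the groups compared, array weights, robust eBayes and the lowest-numbered probe set per gene. Further ones were a filter on genes of small SD, replicate blocks, each array left out, single probe sets and the Y-linked mean as a covariate. The last 2 were added after seeing the data.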

Additional observations from a re-analysis of the deposited data

Results flagged for a closer look

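The Mcl1 difference between genotypes had opposite signs in the 2 tissues with Dox, and neither was called (limma adjusted p = 0.438 and 1.0). All 3 knockout arrays lay above the wildtype arrays in the esophagus, by 0.25 log2 units, and all 3 lay below them in marrow, by -0.16 log2 units. The test of the difference between them, the interaction, gave 0.41 ± 0.22 log2 units and did not pass (limma adjusted p = 0.962). Arrays were without overlap for 23.3% of all genes in esophagus and 11.7% in marrow. Neither probe set by itself had both separations: the arrays of 17400418 overlapped in marrow and those of 17407826 in esophagus.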

How the results depend on the processing

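No called member value reversed. The call of Pmaip1 between esophageal genotypes left 0 members called with quantile normalization, with only the groups compared (adjusted p = 0.224), with the replicate block by number (1.66 log2 units, limma adjusted p = 0.0509) and with the Y-linked covariate, and 0 to 1 when 1 array was left out. In the tissue comparison, members called rose from 2 to 4 with only the groups compared and to 5 with array weights in wildtype, with a range of 2 to 4 when 1 array was left out. In knockout they rose from 3 to 6 with array weights and to 5 with the replicate block by genotype and number, with a range of 3 to 5 when 1 array was left out. The genotype by tissue interaction gave 1 with array weights, Pmaip1 at 1.98 log2 units (limma adjusted p = 0.0362). The tissue calls of Bcl2l11 in both genotypes and of Pmaip1 in knockout kept their direction and call in all 27 alternatives (knockout Bcl2l11 from 1.64 to 2.85 log2 units), and those of Mcl1 in 28 of 29, the exception being probe set 17407826 by itself. The labels name no pairing by replicate number. Deviations of same-numbered arrays from their group means correlated from -0.10 to 0.23 over 40 such pairs of arrays, with 11 over 0.1. With 2 or 3 arrays a group, these values cannot show whether the numbers pair the samples. Over all genes, 77 were called between esophageal genotypes, 2 with quantile normalization, 8 with only the groups compared, 858 with array weights, 118 without genes of small SD, 47 with the replicate block, 7 with the covariate and 22 to 763 when 1 array was left out, 763 being without knockout marrow without Dox replicate 3. In wildtype tissue 3366 were called (1799 higher), 2048 (803 higher) with quantile normalization, 8210 with array weights, 5528 with the block by genotype and number, 1629 with the covariate and 1335 to 8092 when 1 array was left out. In knockout tissue 2336 were called, 6117 with array weights, 4451 with only the groups compared and 1538 to 4175 when 1 array was left out. For Dox in marrow the count moved from 5 to at most 126 in wildtype (quantile normalization) and 3331 in knockout (array weights), for knockout against wildtype marrow from 0 to at most 6 with Dox (array weights) and 37 without (quantile normalization), and for the interactions from 1 to at most 35 and from 0 to at most 4. With 2 or 3 arrays a group, differences in the uncalled members were not detectable rather than absent.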
